A study of Homo sapiens with 10 samples.

Results

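The BCL2 family decides whether mitochondria release the proteins that start apoptosis, and 10 of its genes were followed through olaparib treatment of an ovarian cancer line: BCL2, BCL2L1 and MCL1, which keep cells alive, BAX and BAK1, which open the outer mitochondrial membrane, and the BH3-only genes BID, BAD, BBC3, PMAIP1 and BCL2L11. The members are a fixed list of gene names. All 10 were found among the 19893 genes of the count table, and all 10 had enough counts to be tested. Kuramochi is an established human line of high-grade serous ovarian cancer, labelled epithelial and BRCA2-mutant, and every group was grown from it in the same insulin-supplemented medium. The groups were drug-naive control cells, persister cells that outlasted 9 days of the PARP inhibitor olaparib at 10 or 320 µM, and adapted, olaparib-resistant populations at the same 2 doses. How long the adapted populations had been under drug, and whether drug was present at collection, is not given in the labels. All groups are 1 cell line, and the labels do not tie the 2 replicates of a condition to different cultures. The p-values therefore reflect variation between 2 pools of hashtagged cells, which may be technical.

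BCL2, BCL-XL (the main product of BCL2L1) and MCL1 hold BAX and BAK1 in check. BH3-only proteins either occupy those pro-survival proteins or activate the effectors directly, and BAX and BAK1 then assemble pores through which cytochrome c leaves to start the caspase cascade. BID links this route to death receptors, because caspase-8 cuts it into an active form. BBC3 (PUMA) and PMAIP1 (NOXA) are controlled largely by transcription, and PMAIP1 chiefly binds MCL1. Much of the family is controlled after transcription, MCL1 by rapid protein turnover and BID and BAD by cleavage or phosphorylation. Only RNA was measured here, from the 3′ ends of transcripts, so splice forms such as the long and short BCL2L1 products were counted together.

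The table held unique molecular identifier (UMI) counts for 13800 cells. Adding the counts of a condition's cells within a pool gave 10 sums, from 3532281 to 23189583 UMIs and from 263 to 2435 cells. Levels are CPM, each gene's count relative to the UMI total of its sum, scaled by edgeR's TMM factors, with 2 values per condition. The median share of mitochondrial UMIs was 4.98% to 4.99% in 10 µM persister cells and 5.34% to 9.42% elsewhere. The 10 epithelial markers each had at least 1 UMI in every condition, MUC16 and CDH1 only 1 each in 320 µM adapted cells. Their summed level, mostly KRT8 and KRT18, was 4550 and 4700 CPM in control cells and 1370 and 1240 CPM in 320 µM adapted cells. KRT7 alone was higher in 320 µM adapted than in control cells (means 6.13 and 2.84 CPM). It reached 73.2 CPM in 10 µM persister and 41.3 CPM in 10 µM adapted cells. EPCAM had 4.63 CPM in control and 11.5 CPM in 10 µM adapted cells. The 6 fibroblast markers summed to 184 and 180 CPM in 10 µM adapted cells and to between 2.10 and 12.8 CPM elsewhere, and 23.4% and 25.6% of the 10 µM adapted cells held a COL1A1 UMI. The 7 leukocyte markers summed to 13.2 and 8.17 CPM in 10 µM persister cells and to at most 1.57 CPM elsewhere. Most of that was CD14 (11.35 and 6.97 CPM), with CD3E, LYZ and NKG7 at 0 in those cells. The 4 mesothelial markers, mainly MSLN and UPK3B, summed to 133 and 126 CPM in control and to 3.32 and 3.60 CPM in 320 µM adapted cells. With the COL1A1-positive cells left out, a choice made after seeing the data, 84 of the 90 member values kept their side of the threshold. The part of the epithelial, mesothelial and leukocyte markers, and of the mitochondrial share, in the results was not tested.

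The pro-survival genes had their highest mean level in control cells. BCL2L1 stood at 77.6 and 82.6 CPM in control pools 1 and 2, at 69.6 and 81.5 CPM in 10 µM persister cells, and at 53.3 and 51.8 CPM in 320 µM persister cells. In adapted cells it was lower again, at 38.1 and 37.5 CPM for 10 µM and 29.3 and 33.1 CPM for 320 µM. The control and 10 µM persister pools overlapped, and every later step down this order separated the pools. Against control the log2 change of BCL2L1 was -0.08 ± 0.08 (SE) in 10 µM persister cells, which did not pass the test, then -0.61 ± 0.07 in 320 µM persister, -1.08 ± 0.07 in 10 µM adapted and -1.36 ± 0.07 in 320 µM adapted cells, with edgeR's quasi-likelihood test giving Benjamini-Hochberg adjusted p-values of 2.41e-08, 2.8e-14 and 9.74e-17 for those that passed. Adapted cells therefore carried 0.47 and 0.39 times the control level.

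MCL1, whose protein is among the shortest-lived of the family, had 159.1 and 155 CPM in control cells, 135 and 126 CPM in 10 µM persister cells and 104 and 97.0 CPM in 320 µM persister cells. It had 108 and 114 CPM in 10 µM adapted cells and 72.0 and 78.6 CPM in 320 µM adapted cells. No neighbours in this order overlapped, and all 4 treated conditions were below control. MCL1 fell by 0.27 on the log2 scale in 10 µM persister and 0.64 in 320 µM persister cells, and by 0.50 and 1.06 in adapted cells at 10 and 320 µM (SE 0.05 to 0.06, edgeR Benjamini-Hochberg adjusted p at most 0.000355). Within each stage the higher dose had the lower level, with log2 changes of -0.37 ± 0.07 between persister and -0.56 ± 0.06 between adapted cells.

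BCL2 itself was scarce. It had 1.68 and 1.82 CPM in control cells, from 38 and 43 UMIs, and 2 and 1 UMIs in all in the 10 µM persister pools. The pooled ratio of 10 µM persister to control cells was 0.213 (95% exact interval 0.043 to 0.644, counting error only), and that of 320 µM persister to control cells, from 8 and 6 UMIs, was 0.461 (0.241 to 0.819). Adapted cells had 1.70 and 1.10 CPM at 10 µM and 1.38 and 1.86 CPM at 320 µM, both overlapping control. The decrease passed edgeR's test in both persister conditions (adjusted p = 0.00533 and 0.0193) and not in the adapted ones.

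Limits of these pro-survival results lie mostly with BCL2. Its call in 10 µM persister cells was lost without pool 2 of those cells (log2 change -1.76), that in 320 µM persister cells without control pool 2 (-1.05) or without either of their own pools (-1.31 and -0.92), and both were lost after thinning every cell to 3000 UMIs (-1.545 and -0.29) and in cells off the cell list the authors deposited separately (-0.32 and -1.04). The 320 µM persister call was also lost under DESeq2 (-1.10). On the cells of that list BCL2 had too few counts to be tested, with 0 UMIs in 10 µM persister cells. BCL2L1 between the adapted doses (-0.27) was -0.0058 on the cells of that list and -0.19 without pool 1 of the 320 µM cells, and passed in neither. MCL1 between 10 µM adapted and persister cells (-0.23) did not pass after thinning (-0.059), on the listed cells (-0.085) or without the COL1A1-positive cells (-0.14), and its change in 10 µM persister cells against control did not pass off the list (-0.23).

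**Figure D1:**
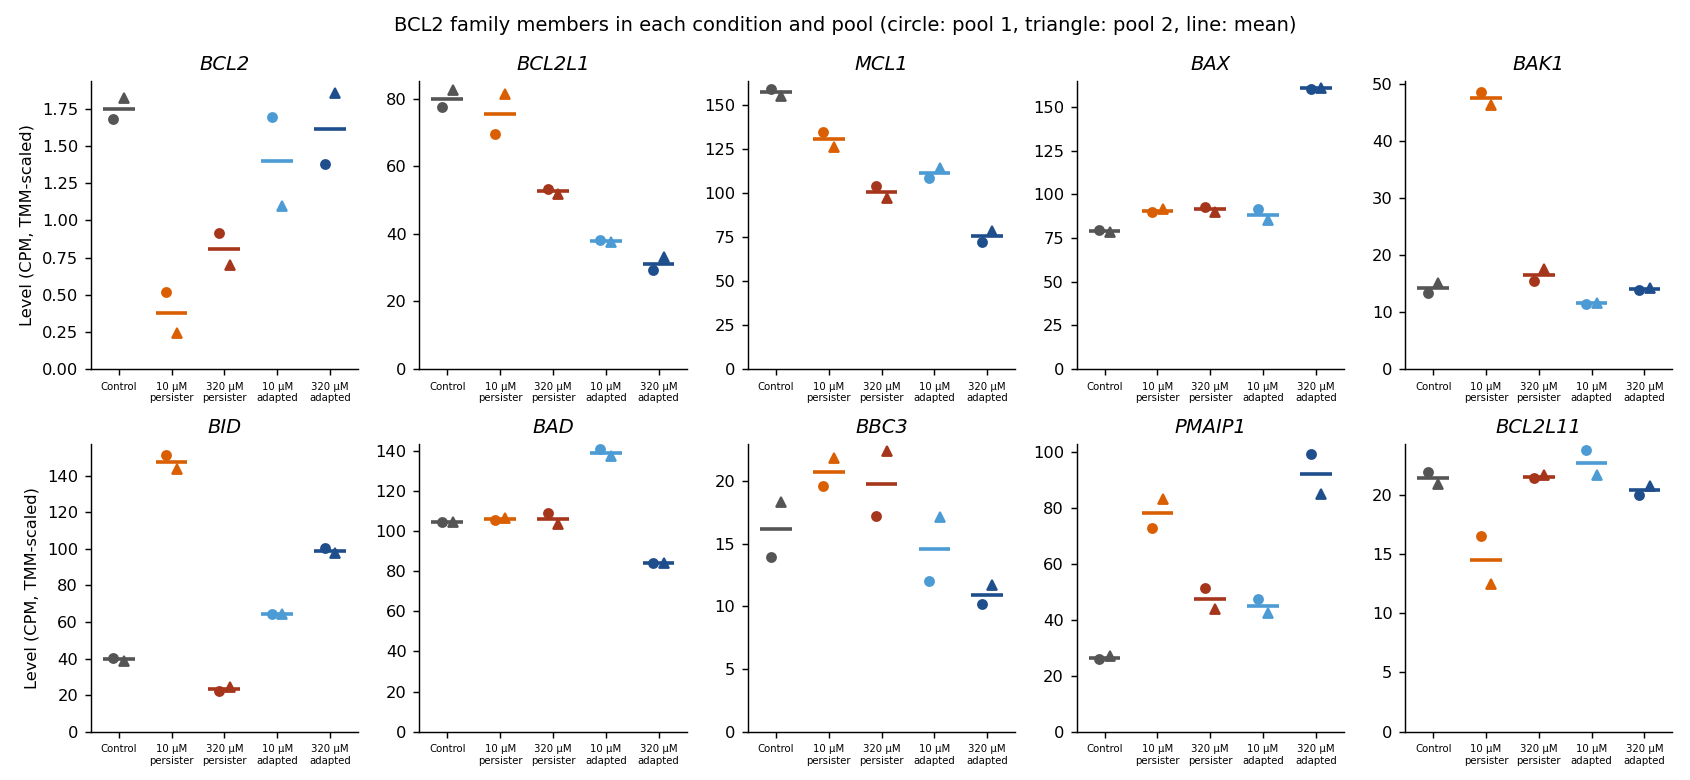
Level of each of the 10 members (CPM scaled by TMM factors, linear axes from 0) in the 5 conditions; the circle is pool 1, the triangle pool 2 and the line their mean. BCL2L1 and MCL1 have their highest means in control and their lowest in 320 µM adapted cells, BAX stands at 160.4 and 161 CPM in 320 µM adapted cells against 78.4 to 92.8 CPM elsewhere, and BAK1 is high in 10 µM persister cells.

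The effectors BAX and BAK1 rose most in different conditions. BAX had 79.8 and 78.4 CPM in control cells, 89.8 and 91.3 CPM in 10 µM persister cells, 92.8 and 90.0 CPM in 320 µM persister cells and 91.5 and 85.3 CPM in 10 µM adapted cells. In 320 µM adapted cells it reached 160.4 and 161 CPM. The 3 middle conditions overlapped one another, and both the control and the 320 µM adapted pools stood clear of them. BAX was 2.03-fold higher in 320 µM adapted than in control cells (log2 change 1.02 ± 0.05, edgeR Benjamini-Hochberg adjusted p = 4.47e-17), while smaller log2 changes of 0.19 (10 µM persister), 0.21 (320 µM persister) and 0.16 (10 µM adapted) also passed. The 1.02 kept its call under every alternative run. The 3 small changes did not. That in 10 µM persister cells was lost after thinning (0.039) and without control pool 2 or their own pool 2 (0.17 in both cases). That in 320 µM persister cells was lost off the deposited list (0.038). The change in 10 µM adapted cells was lost without control pool 2 (0.14) or their own pool 1 (0.10). It was also lost on the listed cells (0.15) and with libraries scaled by totals alone (0.090).

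BAK1, the effector that resides on mitochondria, had 13.3 and 15.1 CPM in control cells and 48.7 and 46.4 CPM in 10 µM persister cells. The other conditions lay near control, with 15.5 and 17.6 CPM in 320 µM persister, 11.4 and 11.7 CPM in 10 µM adapted and 13.9 and 14.3 CPM in 320 µM adapted cells. The 10 µM persister pools stood clear of all other sums, of which the highest had 17.6 CPM, and control and 320 µM adapted pools overlapped. BAK1 was 3.34-fold higher in 10 µM persister than in control cells (log2 change 1.74 ± 0.10, edgeR Benjamini-Hochberg adjusted p = 9.34e-15) and 0.24 times as high in 10 µM adapted as in 10 µM persister cells (log2 change -2.04 ± 0.11). A change of -0.30 in 10 µM adapted cells against control also passed. That call vanished on the cells of the deposited list (-0.0012) and was also lost after thinning (-0.17), without control pool 2 (-0.22), without 10 µM adapted pool 1 (-0.29), without the COL1A1-positive cells (-0.24) and under DESeq2 (-0.28). Between 320 µM adapted and persister cells the change of -0.23 did not pass, and passed with library totals alone (-0.51) and without 320 µM persister pool 1 (-0.32). In 320 µM persister cells against control 0.21 did not pass, and passed with library totals alone (0.27) and on the listed cells (0.43). The value in 320 µM adapted cells against control (-0.01) did not pass, and passed with library totals alone (-0.24).

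The promoters of both effectors are shown because these genes rose in different conditions. Sequences are the RefSeq windows of 250 bases before the gene's start on GRCh38.p14, each printed only as far as the first base of the GENCODE 29 gene, and 9 of the 10 members matched that table. BAX lies on chromosome 19, forward strand, from 48954815 to 48961798, and BAK1 on chromosome 6, reverse strand, from 33572547 to 33580293. Capitals mark E-boxes (CACGTG) in BAX at chr19:48954625-48954814, and in BAK1 at chr6:33580294-33580526 they mark GC boxes (GGGCGG on either strand).
BAX: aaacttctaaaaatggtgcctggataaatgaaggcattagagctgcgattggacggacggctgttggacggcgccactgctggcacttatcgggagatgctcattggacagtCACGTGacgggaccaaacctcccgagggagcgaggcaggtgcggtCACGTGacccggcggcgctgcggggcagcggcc
BAK1: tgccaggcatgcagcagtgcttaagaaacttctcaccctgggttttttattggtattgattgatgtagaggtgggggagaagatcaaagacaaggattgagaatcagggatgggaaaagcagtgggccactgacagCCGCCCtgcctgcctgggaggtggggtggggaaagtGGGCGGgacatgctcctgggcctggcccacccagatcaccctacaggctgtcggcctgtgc
The whole BAX window held 4 E-boxes, 138, 93, 45 and 14 bases before the start, of which the first 2 lie in the printed stretch. Of 35116 such windows 6.34% held at least 1 E-box and 0.0142% held 4 or more. The BAK1 window held 2 GC boxes, 114 and 78 bases before the start, and 42.6% of all windows held at least 1. These matches are letters in a window and not evidence of binding.

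Of the BH3-only genes, BID and PMAIP1 moved most. BID had 40.3 and 38.9 CPM in control cells, 151 and 144 CPM in 10 µM persister cells and 22.5 and 24.6 CPM in 320 µM persister cells. Adapted cells had 64.4 and 64.6 CPM at 10 µM and 100.3 and 97.9 CPM at 320 µM. All 5 conditions were separated from their neighbours, and 320 µM persister cells were the only ones below control. BID was 3.73-fold higher in 10 µM persister cells (log2 change 1.90 ± 0.06), 1.63-fold higher in 10 µM adapted cells (0.70 ± 0.06) and 2.50-fold higher in 320 µM adapted cells (1.32 ± 0.06), and 0.59 times control in 320 µM persister cells (-0.75 ± 0.08), with edgeR Benjamini-Hochberg adjusted p at most 1.14e-09 in each. Among cells that are not on the list of cells the authors deposited separately, the decrease in 320 µM persister cells was -0.20 and did not pass.

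PMAIP1, which encodes the MCL1-binding protein NOXA, had 25.9 and 27.1 CPM in control cells and more in all 4 treated conditions. It had 73.0 and 83.4 CPM in 10 µM persister, 51.4 and 43.8 CPM in 320 µM persister, 47.6 and 42.3 CPM in 10 µM adapted and 99.3 and 84.9 CPM in 320 µM adapted cells. The 320 µM persister and 10 µM adapted pools overlapped, and the other neighbours in this order did not. PMAIP1 was 2.96-fold, 1.80-fold, 1.70-fold and 3.47-fold higher than control in those 4 conditions, with log2 changes of 1.56, 0.84, 0.76 and 1.80 (SE 0.09 to 0.10, edgeR Benjamini-Hochberg adjusted p at most 5.29e-07). These 4 calls against control held under every alternative run.

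The promoter windows of BID and PMAIP1 are printed for the same reason as those of the effectors. BID spans 17734138 to 17774770 on the reverse strand of chromosome 22 and has 5 RefSeq starts, of which the window before the most upstream one is used, and PMAIP1 spans 59899948 to 59904306 on the forward strand of chromosome 18. The stretches printed are chr22:17774771-17774915 for BID and chr18:59899746-59899947 for PMAIP1, with GC boxes in capitals.
BID: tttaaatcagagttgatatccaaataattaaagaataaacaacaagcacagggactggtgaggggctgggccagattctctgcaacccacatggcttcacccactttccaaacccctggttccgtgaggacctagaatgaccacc
PMAIP1: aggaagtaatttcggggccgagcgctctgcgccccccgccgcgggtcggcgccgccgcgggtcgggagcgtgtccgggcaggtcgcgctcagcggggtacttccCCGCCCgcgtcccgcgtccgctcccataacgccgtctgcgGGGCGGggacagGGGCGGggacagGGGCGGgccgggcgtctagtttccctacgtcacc
The PMAIP1 window held 4 GC boxes, 146, 106, 94 and 82 bases before the start, and 7.63% of all windows held 4 or more. The whole 250-base BID window held none of the E-box, GC box or interferon response element, whose letters were searched on both strands. The interferon response element was in none of the 9 member windows and in 3.02% of all windows, which says only that these letters are absent there.

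BAD, BBC3 and BCL2L11 changed less. BAD, whose protein is held inactive by survival-kinase phosphorylation, had 104 and 105 CPM in control cells, 106 and 107 CPM in 10 µM persister, 109 and 104 CPM in 320 µM persister, 141 and 137 CPM in 10 µM adapted and 83.9 and 84.0 CPM in 320 µM adapted cells. The persister and control values lay within 104 to 109 CPM, and the 2 adapted conditions stood on opposite sides of them. BAD was 1.33-fold higher in 10 µM adapted cells (log2 change 0.41 ± 0.05, edgeR adjusted p = 1.62e-08) and 0.80 times control in 320 µM adapted cells (-0.31 ± 0.05, adjusted p = 2.23e-06).

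BBC3, which encodes PUMA, had 13.9 and 18.3 CPM in control cells, 19.6 and 21.9 CPM in 10 µM persister, 17.2 and 22.4 CPM in 320 µM persister, 12.02 and 17.1 CPM in 10 µM adapted and 10.2 and 11.7 CPM in 320 µM adapted cells. Pool 2 was the higher one in every condition, and 4 of the 5 conditions overlapped a neighbour. Only 320 µM adapted cells differed from control past the threshold (log2 change -0.56 ± 0.20, edgeR adjusted p = 0.0327), and that call was lost without control pool 2 (-0.35), without either 320 µM adapted pool (-0.47 and -0.67) or on the listed cells (-0.21). With the pool as a block in the model, the values of 0.36 in 10 µM persister and 0.29 in 320 µM persister cells passed as increases, with edgeR adjusted p = 0.0143 and 0.00962. Without control pool 2 these values were 0.57 and 0.50 and also passed, as they did with no filter on low counts (0.33 and 0.27). That in 320 µM persister cells also passed on the listed cells (0.53). Without 10 µM adapted pool 2 the 10 µM adapted value was -0.43 and passed. The blocked fit also called BBC3 lower in 10 µM adapted than in 10 µM persister cells (-0.51). So did DESeq2 (-0.53), no filter (-0.51), only the sums compared (-0.52), cells off the list (-0.93) and leaving out 10 µM adapted pool 2 (-0.79). BBC3 was likewise called lower in 320 µM than in 10 µM adapted cells by the blocked fit (-0.42). That call also came with no filter (-0.38), only the sums compared (-0.43), thinning (-0.53), cells off the list (-0.48) and without 10 µM adapted pool 1 (-0.64).

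BCL2L11, which encodes BIM, had 21.9 and 21.0 CPM in control cells and 16.5 and 12.5 CPM in 10 µM persister cells. The other 3 conditions lay between 20.04 and 23.8 CPM. It was 0.67 times control in 10 µM persister cells (log2 change -0.57 ± 0.13, edgeR adjusted p = 0.000572) and passed in no other comparison with control. Without pool 2 of the 10 µM persister cells the change was -0.38 and no longer passed. In cells not on the deposited list it was 0.065. With library totals alone, unlike in the reported fit, BCL2L11 was called lower in 320 µM adapted than in control cells (-0.30). It was then also called lower there than in 320 µM persister (-0.36) and 10 µM adapted cells (-0.31).

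**Figure D2:**
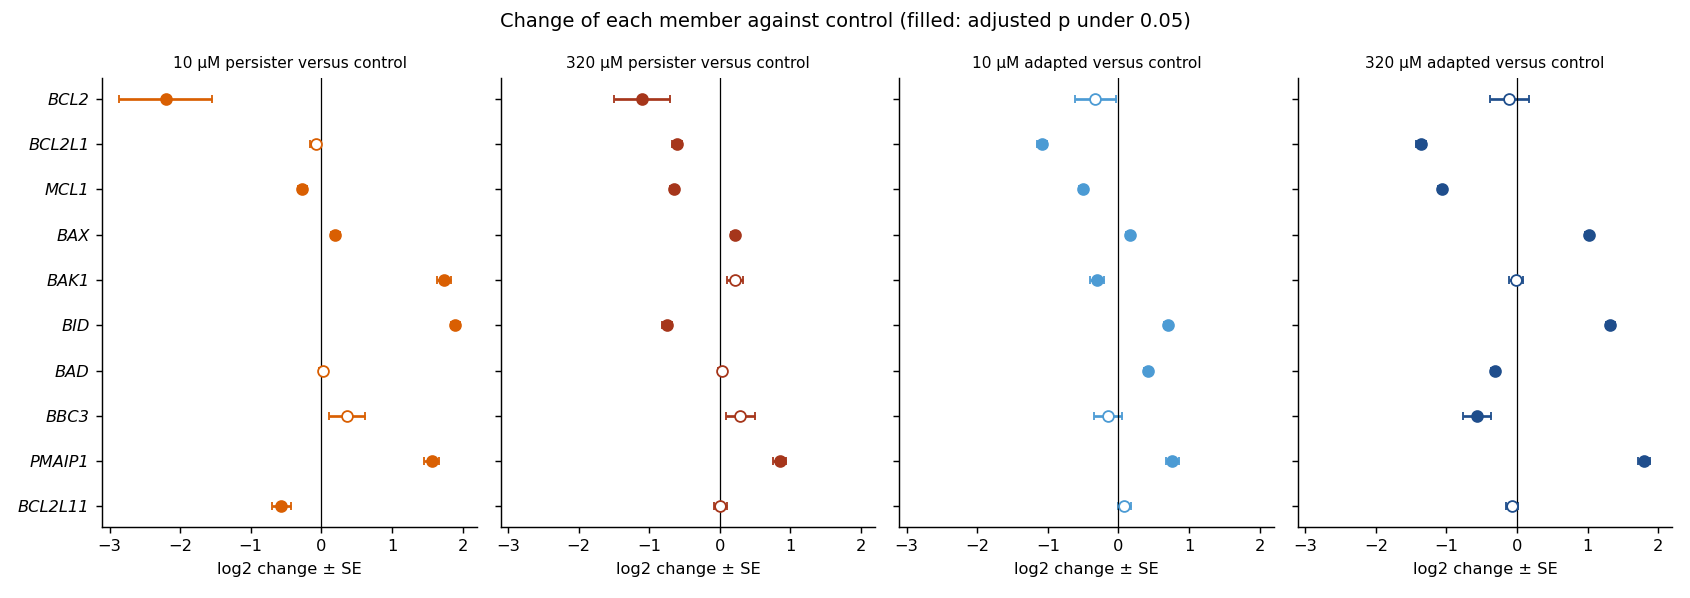
log2 change ± SE of each member against control in the 4 treated conditions, from edgeR's quasi-likelihood fit over all 10 sums; filled points have a Benjamini-Hochberg adjusted p under 0.05. PMAIP1 and BAX are right of zero in every panel, MCL1 is left of it in every panel, and BID lies left of it in the 320 µM persister panel alone.

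The number of members that changed was not far from the share of all genes that did. In 10 µM persister cells 4 members rose against control (BAX, BAK1, BID and PMAIP1) and 3 fell (BCL2, MCL1 and BCL2L11), where 27.3% of the 13330 genes tested were called higher and 29.3% lower. In 320 µM persister cells 2 rose (BAX and PMAIP1) and 4 fell (BCL2, BCL2L1, MCL1 and BID), against 26.3% and 28.3% of all genes. In 10 µM adapted cells 4 rose (BAX, BID, BAD and PMAIP1) and 3 fell (BCL2L1, MCL1 and BAK1), against 33.7% and 33.4%. In 320 µM adapted cells 3 rose (BAX, BID and PMAIP1) and 4 fell (BCL2L1, MCL1, BAD and BBC3), against 37.6% and 36.9%, or 28% and 46.8% when libraries were scaled by their totals alone. The median log2 change of the members in these comparisons was 0.11, 0.02, -0.03 and -0.09, beside -0.03, -0.01, 0.005 and 0.01 over all genes tested. The 4 comparisons share the control sums. The members thus changed about as often as other genes.

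Adapted cells were also set against persister cells of the same dose. At 10 µM, 3 members were higher in adapted cells (BCL2, BAD and BCL2L11) and 5 lower (BCL2L1, MCL1, BAK1, BID and PMAIP1), against 31.4% and 29.3% of all genes (23.5% and 36.9% with library totals alone). BAK1 and BID had the steepest differences here apart from the sparse BCL2, with log2 changes of -2.04 ± 0.11 and -1.19 ± 0.06. At 320 µM, 4 members were higher in adapted cells (BCL2, BAX, BID and PMAIP1) and 4 lower (BCL2L1, MCL1, BAD and BBC3), against 34.1% and 32.6% (22.7% and 45.0% with library totals alone). BID was 4.21-fold higher there (log2 change 2.08 ± 0.07), PMAIP1 1.93-fold (0.95 ± 0.09) and BAX 1.76-fold (0.81 ± 0.05), each with an edgeR Benjamini-Hochberg adjusted p of at most 1.84e-08. BCL2L1 was lower in adapted cells at both doses, by -1.002 ± 0.08 at 10 µM and -0.75 ± 0.08 at 320 µM. The BCL2 calls rest on few UMIs: at 10 µM the call was lost without either persister pool (2.49 and 1.42) or without adapted pool 1 (1.52), at 320 µM without either persister pool (1.20 and 0.81) or without adapted pool 2 (0.76). Both were also lost under DESeq2 (1.88 and 0.996), after thinning (1.62 and 0.33) and in cells off the list (0.28 and 1.09). The 10 µM call was lost without the COL1A1-positive cells (1.66), and the 320 µM call with library totals alone (0.72). BBC3 at 320 µM was lost without persister pool 2 (-0.67). BCL2L11 at 10 µM did not pass in cells off the list (0.036) or after thinning (0.64).

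The 2 doses were compared within each stage, and the dose effects then with each other. Between persister cells, 1 member was higher at 320 µM (BCL2L11, log2 change 0.58 ± 0.14) and 5 were lower (BCL2L1, MCL1, BAK1, BID and PMAIP1), against 25.3% and 24.4% of all genes. Between adapted cells, 4 were higher at 320 µM (BAX, BAK1, BID and PMAIP1) and 3 lower (BCL2L1, MCL1 and BAD), against 33.4% and 32.4% (24.2% and 40.4% with library totals alone). BID and PMAIP1 had dose effects of opposite sign in the 2 stages. So did BAK1, but its effect between adapted cells lost its call under several alternatives given below. BID was -2.65 ± 0.08 between persister and 0.62 ± 0.06 between adapted cells, PMAIP1 was -0.72 ± 0.11 and 1.03 ± 0.08, and BAK1 was -1.52 ± 0.12 and 0.29 ± 0.11. BCL2L1 and MCL1 were lower at 320 µM in both stages, but after thinning neither passed between persister cells (-0.36 and -0.27), and BCL2L1 did not pass between adapted cells on the listed cells (-0.0058).

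The dose effects themselves differed for 6 members by edgeR's interaction test, with 4 more positive in adapted cells and 2 more negative, against 23.4% and 25.9% of all genes. The difference of log2 changes was 3.27 ± 0.10 for BID, 1.81 ± 0.16 for BAK1, 1.75 ± 0.14 for PMAIP1, 0.85 ± 0.08 for BAX, -0.73 ± 0.08 for BAD and -0.73 ± 0.17 for BCL2L11 (edgeR Benjamini-Hochberg adjusted p from 5.41e-22 for BID to 0.000668 for BCL2L11). BAX and BAD had no dose effect past the threshold between persister cells (0.01 ± 0.07 and 0.00 ± 0.06) and clear ones between adapted cells (0.86 ± 0.05 and -0.73 ± 0.05). For BCL2L1 and MCL1 the differences of 0.25 and -0.19 did not pass (adjusted p = 0.0703 and 0.0742), and with the pool as a block they did (adjusted p = 0.043 and 0.045). The BCL2L1 difference also passed in cells off the list (0.59), with no filter on low counts (0.27) and without the COL1A1-positive cells (0.32). It passed too without pool 1 of the 10 µM persister (0.36) or 320 µM adapted cells (0.33). The MCL1 difference also passed on the listed cells (-0.31), with library totals alone (-0.28) and without the COL1A1-positive cells (-0.27). It passed too without 10 µM persister pool 1 (-0.23), 320 µM persister pool 2 (-0.24) or 320 µM adapted pool 2 (-0.25). BAK1 between adapted cells (0.29 ± 0.11) lost its call after thinning (0.099), with library totals alone (0.13), without the COL1A1-positive cells (0.23), without either 10 µM pool (0.28 and 0.30), without 320 µM pool 2 (0.27), under DESeq2 (0.27) and on the listed or the other cells alone (0.31 and 0.32). BCL2L11 between persister cells lost its call in cells off the list (0.16), after thinning (0.53) and without 10 µM pool 2 (0.39).

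**Figure D3:**
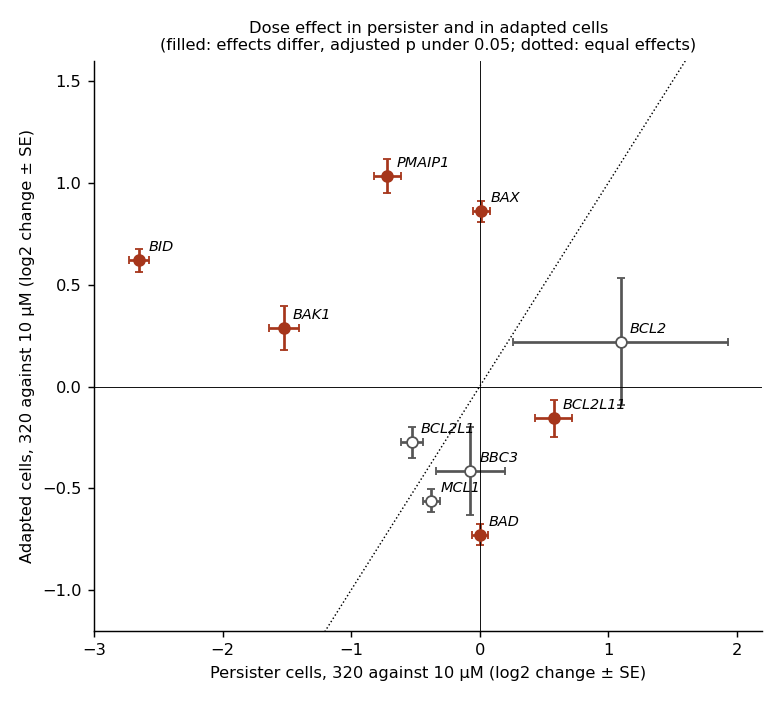
Dose effect of each member, as the log2 change ± SE from 10 to 320 µM, between persister cells (horizontal axis) and between adapted cells (vertical axis); filled points have dose effects that differ (edgeR adjusted p under 0.05) and the dotted line marks equal effects. BID, PMAIP1 and BAK1 lie in the upper left, lower at 320 µM among persister and higher among adapted cells, while MCL1 and BCL2L1 lie lower left near the line.

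The balance of the family's transcripts shifted from the pro-survival genes towards the rest. The 3 pro-survival genes held 44.3% and 44.1% of the 10 members' summed CPM in control cells, 28.9% and 29.1% in 10 µM persister, 32.4% and 31.6% in 320 µM persister, 27.5% and 28.6% in 10 µM adapted and 17.4% and 19.3% in 320 µM adapted cells. The control pools were above all treated pools and the 320 µM adapted pools below all others. BH3-only genes held 38.4% and 38.6% in control cells and 45.4% to 53.5% in treated ones. Their summed level was 206 and 210 CPM in control and little higher, 221 and 216 CPM, in 320 µM persister cells. In the other treated sums it was 283 to 368 CPM. The pro-survival sum was 238 and 240 CPM in control and 158 and 150 CPM in 320 µM persister cells. The effectors held 17.2% to 22.7% in the other conditions and 29.5% and 29.8% in 320 µM adapted cells, where BAX made up most of it. In absolute terms the family summed to 709 and 714 CPM in 10 µM persister cells, 473 and 488 CPM in 320 µM persister cells and 533 to 591 CPM in the others. These shares count transcript tags, are dominated by the abundant genes and are given as a description with no test.

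**Figure D4:**
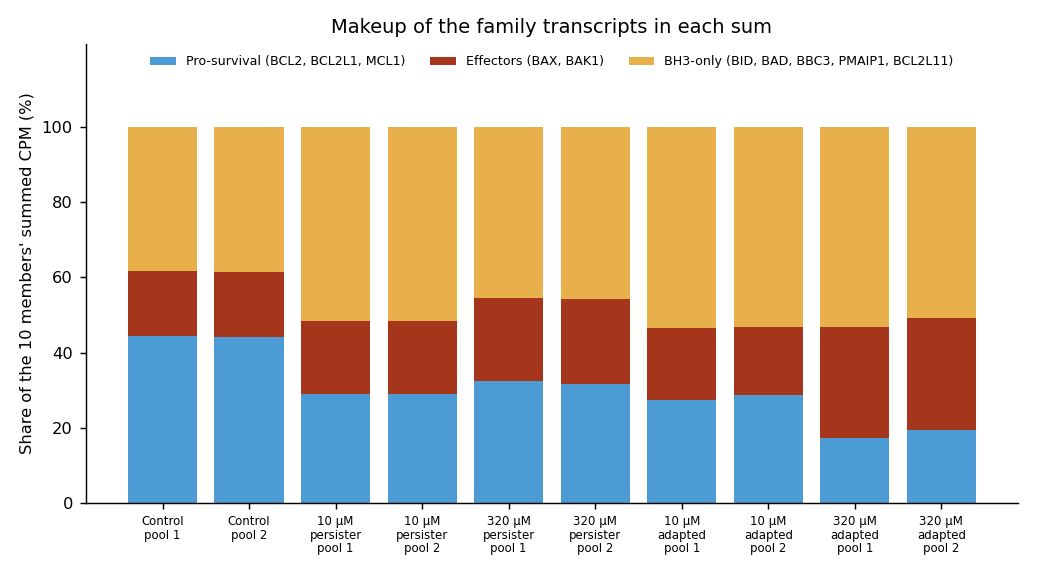
Share of the summed CPM of the 10 members (in percent, bars from 0 to 100) held by pro-survival, effector and BH3-only genes in each of the 10 sums. The pro-survival share is 44.1% to 44.3% in control and 17.4% to 19.3% in 320 µM adapted cells.

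The same changes appeared in how many cells carried a transcript. Each cell was thinned to 3000 UMIs, leaving out the 207 cells below that, because median depth ran from 8131 to 15213 UMIs per cell across the sums. A BID UMI was found in 10.8% ± 0.778 (SD, n = 2 pools) of control cells and in 36.2% ± 6.72 of 10 µM persister, 6.53% ± 0.672 of 320 µM persister, 17.1% ± 0.0707 of 10 µM adapted and 20.9% ± 0.354 of 320 µM adapted cells. The unthinned shares in that order were 30.4%, 70.3%, 24.4%, 39.9% and 50.1%. MCL1 was found in 36.5% ± 1.06 of control cells and 17.4% ± 0.99 of 320 µM adapted cells, and BCL2L1 in 20.9% ± 0.495 and 7.89% ± 1.44 (unthinned 72.0% and 43.1% for MCL1, 48.9% and 21.7% for BCL2L1). A BAK1 UMI was found in 14.9% ± 0.283 of 10 µM persister cells and in 3.44% to 4.67% on average elsewhere (unthinned 43.1% against 9.61% to 18.4%). BAX was found in 33.4% ± 1.13 of 320 µM adapted cells and PMAIP1 in 18.2% ± 1.13, beside 21.1% ± 0.636 and 6.97% ± 0.467 of control cells (unthinned 69.4% and 44.2% beside 52.5% and 19.8%). BCL2 was in 0.21% to 0.537% of thinned cells on average (unthinned 0.524% to 1.71%), which is too near the level of single UMIs to compare. All cells are of 1 line, so no cell type that lacks these genes was at hand to measure the share that free RNA gives.

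PMAIP1 and BID were higher outside the deposited cell list. The authors deposited a separate list of cells, named for the G1 phase of the cell cycle, which holds 7762 of the 13800 cells and 42.3% to 43.5% of control, 75.3% and 76.0% of 10 µM persister, 78.7% and 74.9% of 320 µM persister, 62.9% and 67.0% of 10 µM adapted and 53.9% and 55.1% of 320 µM adapted cells. PMAIP1 was higher in the cells not on it in 10 of 10 sums, with control means of 15.7 CPM on the list and 32.7 CPM off it, 62.8 and 128 CPM in 10 µM persister, 35.1 and 79.1 CPM in 320 µM persister, 35.5 and 57.8 CPM in 10 µM adapted and 77.6 and 104 CPM in 320 µM adapted cells. BID was also higher off the list in 10 of 10 sums. The ratio of the means was smallest in control cells (1.20, from 35.3 and 42.4 CPM). It was largest in 320 µM persister cells (2.04, from 18.2 and 37.2 CPM). In CPM the gap was wider in 10 µM persister cells (139 and 176 CPM). The reverse held for MCL1, higher off the list in 1 of 10 sums, and for BAD and BCL2L11, in 2 of 10 each. BAX was higher off the list in 7 sums, BCL2 in 8, BCL2L1 in 4, and BAK1 and BBC3 in 3 each. How the cells on the list were chosen is known only from its name, and these are descriptions with no test.

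Since the listed share differed between conditions, the comparisons were repeated on each kind of cell. On the listed cells alone the log2 changes of BID against control kept their calls in all 4 conditions, as did those of PMAIP1. On the other cells PMAIP1 kept its calls against control, while its change between persister doses (-0.77) and between 320 µM adapted and persister cells (0.40) did not pass. BAD in 320 µM persister against control cells was called lower off the list (-0.43) and higher on it (0.23, edgeR adjusted p = 0.0045), against 0.03 in all cells.

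**Figure D5:**
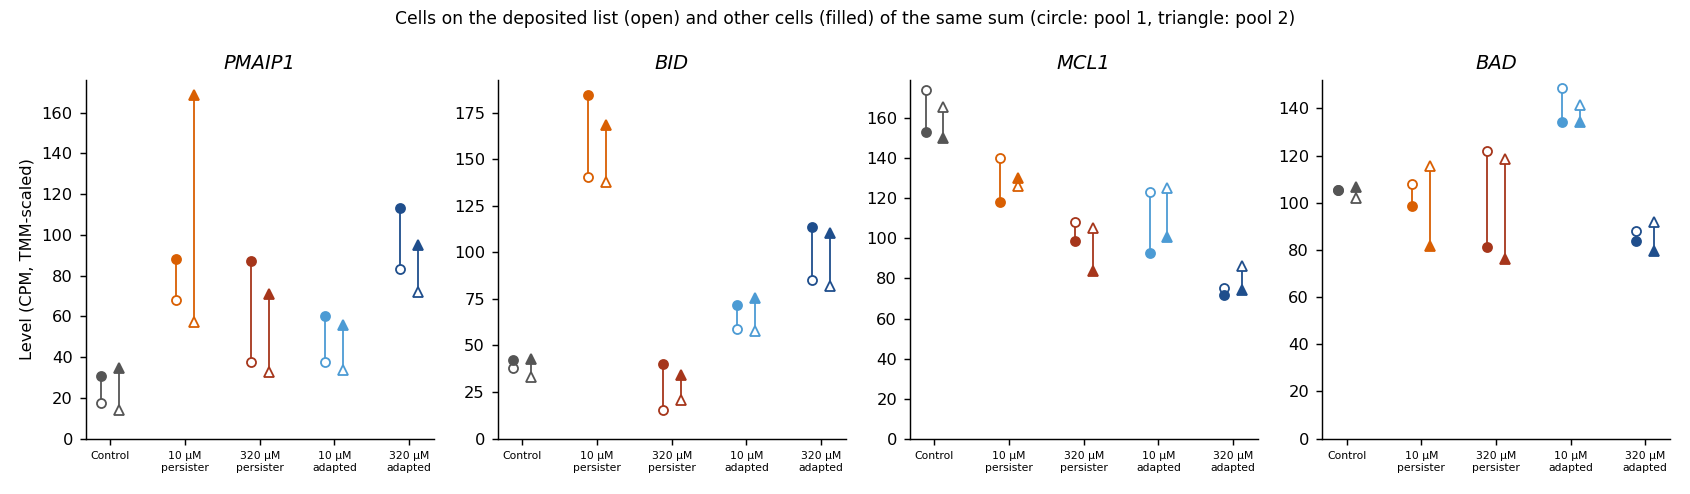
Level (CPM scaled by TMM factors) of 4 members in cells on the deposited list (open) and in other cells (filled) of the same sum, joined by a line; circles are pool 1 and triangles pool 2. PMAIP1 and BID are higher in the other cells in all 10 sums, MCL1 in 1 and BAD in 2.

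Further relatives of the family were taken from a list of 12 genes, of which 9 had enough counts (BCL2A1, BCL2L10 and BCL2L14 had 15, 1 and 24 UMIs in all). Of these 9, 6 rose and 1 fell in 10 µM persister, 5 rose and 1 fell in 320 µM persister, 5 rose and 1 fell in 10 µM adapted, and 7 rose and 2 fell in 320 µM adapted cells, with medians of 1.14, 0.31, 0.45 and 1.45 on the log2 scale. Over all genes the shares called higher and lower in these comparisons were 27.3% and 29.3%, 26.3% and 28.3%, 33.7% and 33.4%, and 37.6% and 36.9%. BNIP3, a mitophagy receptor induced by low oxygen, had 82.5 and 82.8 CPM in control cells, 322 and 290.0 CPM in 10 µM persister and 409 and 387 CPM in 320 µM adapted cells, changes of 3.70-fold and 4.81-fold. Its 320 µM persister and 10 µM adapted levels were 102 and 103 CPM and 121 and 127 CPM. BNIP3L, its relative, rose 2.198-fold and 3.002-fold in 10 µM persister and 320 µM adapted cells. BCL2L12 fell in persister cells (0.87 and 0.64 times control) and rose in adapted cells (1.37-fold and 2.08-fold). Like BID and BAK1, BNIP3 had dose effects that differed between stages, with a difference of 3.26 ± 0.08.

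Downstream of BAX and BAK1, 14 of 15 genes of mitochondrial apoptosis were tested, and DIABLO was listed at 0 UMIs in every sum. Whether its transcript was absent or was not counted was not tested. The list mixes caspases with genes that restrain them, and both kinds were among those that fell in adapted cells (for example CASP9 and XIAP). The counts therefore do not give a direction for caspase activation. In 10 µM persister cells 7 rose and 4 fell, in 320 µM persister cells 4 rose and 6 fell, in 10 µM adapted cells 1 rose and 8 fell, and in 320 µM adapted cells 3 rose and 10 fell (medians 0.14, 0.06, -0.27 and -0.49), beside the same shares of all genes, for example 33.4% lower in 10 µM adapted and 36.9% lower in 320 µM adapted cells. CYCS, which encodes cytochrome c, had 622 and 621 CPM in control cells, 711 and 662 CPM in 10 µM persister, 720.4 and 710.1 CPM in 320 µM persister, 236 and 228 CPM in 10 µM adapted and 361 and 365 CPM in 320 µM adapted cells. It was thus 0.37 and 0.58 times control in the adapted cells, with no overlap. AIFM1, a flavoprotein of the mitochondrial inner membrane, was lower in every treated condition, from 0.67 times control in 320 µM persister to 0.38 times in 320 µM adapted cells. BIRC3, a ubiquitin ligase induced by NF-κB, had 49.8 and 64.2 CPM in 10 µM persister cells and at most 1.998 CPM in any other sum. BIRC5, survivin, which cycles with mitosis, had 26.3 to 30.5 CPM in the persister sums, 82.5 and 83.0 CPM in control and 111 and 106 CPM in 320 µM adapted cells. The persister sums also held the largest shares of cells on the deposited list, whose part in the BIRC5 values was not tested.

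Upstream of BID, 8 of 10 genes of the death receptor arm rose and 0 fell in 10 µM persister cells (median log2 change 0.98, beside -0.03 over all genes, of which 27.3% were called higher and 29.3% lower). The counts in the other conditions were 3 higher and 5 lower in 320 µM persister, 2 and 4 in 10 µM adapted, and 4 and 5 in 320 µM adapted cells. Beside them, 26.3% and 28.3%, 33.7% and 33.4%, and 37.6% and 36.9% of all genes were called. In 10 µM adapted cells 0 were higher and 10 lower than in 10 µM persister cells, where 31.4% and 29.3% of all genes were called, and between persister doses 0 were higher and 8 lower at 320 µM, where 25.3% and 24.4% were. TNFRSF1A, a TNF receptor, had 87.7 and 72.1 CPM in 10 µM persister cells and 28.0 and 28.9 CPM in control cells, 2.80-fold higher. CFLAR, the inhibitor of caspase-8, had 56.5 and 50.5 CPM against 26.4 and 26.2 CPM, 2.03-fold higher, and was 0.55 times control in both 320 µM conditions. CASP8, the protease that cuts BID, was 1.25-fold higher in 10 µM persister cells and lower than control elsewhere, at 0.50 times in 320 µM persister cells and 0.47 and 0.55 times in adapted cells at 10 and 320 µM. In 10 µM persister cells BID, CASP8 and CFLAR were therefore all above control.

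Of 10 genes that control the members' transcription or protein turnover, 2 rose and 3 fell in 10 µM persister, 2 and 1 in 320 µM persister, 2 and 4 in 10 µM adapted, and 5 and 3 in 320 µM adapted cells. Of all genes 27.3% were called higher and 29.3% lower in 10 µM persister cells, and 26.3% and 28.3% in 320 µM persister cells. In adapted cells the shares were 33.7% and 33.4% at 10 µM and 37.6% and 36.9% at 320 µM. The counts lay on both sides of these shares, with 1 of 10 lower in 320 µM persister and 5 of 10 higher in 320 µM adapted cells. ATF4 and DDIT3, stress transcription factors with PMAIP1 and BBC3 among their reported targets, were both higher in all 4 treated conditions. DDIT3 had 20.2 and 23.6 CPM in control, 129 and 103 CPM in 10 µM persister, 82.7 and 68.7 CPM in 320 µM persister, 38.2 and 38.2 CPM in 10 µM adapted and 88.4 and 87.9 CPM in 320 µM adapted cells. ATF4 was 1.52-fold higher in both persister conditions, 1.57-fold in 10 µM adapted and 2.18-fold in 320 µM adapted cells. HUWE1, a ubiquitin ligase of MCL1 protein, was lower in all 4, from 0.47 times control in 10 µM persister cells to 0.82 times in 320 µM persister cells.

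Genes with the most similar pattern to each member were found by Pearson correlation of log2 CPM over the 10 sums, among 5443 genes of at least 20 CPM. The sums share pools and conditions, so these values describe the 10 points only. The nearest genes were HDGF for BCL2L1 (0.993), TNS3 for MCL1 (0.995), CDC25B for BAX (0.99), B4GALT1 for BAK1 (0.991), SDF2L1 for BID (0.995), SMIM1 for BAD (0.968), CIB1 for PMAIP1 (0.986) and SMYD3 for BCL2L11 (0.96). The second nearest were STX18, AFAP1L2, SHMT2, KDELR2, AK4, FIS1, FTL and APLP2 in the same order. BCL2 and BBC3 were below 20 CPM on average and were not searched.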

How the data were processed

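Per the labels' protocols, hashtagged Kuramochi cells were pooled, run on the 10x Genomics Chromium 3′ v3.1 kit and read on an Illumina NextSeq. The authors deposited UMI counts per gene and cell, and Cell Ranger 3.1 and Seurat, with the build GRCh38, are named in the submitters' processing notes. The 10 deposited samples are 8 expression and 2 hashtag libraries, none of them a single condition, so each cell's condition and pool were read from the cell names the authors deposited, which carry both. The hashtag libraries were not analysed here. Cells held 734 to 24458 UMIs, no further cell filter was applied, doublets were not called again, and 13 barcodes occur in both pools. How doublets were removed is not given in the sources used here.

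Counts were summed per condition and pool (10 sums), scaled by TMM factors, filtered by filterByExpr and fitted with edgeR 4.0.16 (robust quasi-likelihood, 1 mean per condition, 5 residual degrees of freedom in the design, R 4.3.3). Benjamini-Hochberg adjustment ran over all 13330 genes tested in each of 9 comparisons, with a threshold of 0.05. Fold changes are edgeR's, on the log2 scale. The fit was also run on simulated counts with few genes changed, the same spread for all genes and no pool effect. That run cannot show how the fit performs where most genes change or pools differ, as here. Pools pair the samples, since the pool differences of any 2 conditions correlated at 0.333 to 0.607 over 2730 genes in all 10 pairs of conditions. The reported fit has no pool term, so its p-values do not use this pairing. The fit with the pool as block does, and is given as an alternative. Alternatives were library totals, DESeq2 1.42.0, no filter, the pool as block, fitting only the sums compared, thinning to 3000 UMIs, listed or other cells alone, and leaving out each pool of each condition. All 10 members were named, and of every other list the called genes of lowest p, at most 3 per comparison, that reached 20 CPM in the higher condition. A gene of the list on turnover and transcription is not reported here. The members and lists were chosen with earlier results of these data known.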

Additional observations from a re-analysis of the deposited data

Results flagged for a closer look

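The effect of dose (320 against 10 µM) differed between adapted and persister cells for 6 members by edgeR's interaction test with Benjamini-Hochberg adjustment, with differences of log2 change of 3.27 for BID, 1.81 for BAK1, 1.75 for PMAIP1, 0.85 for BAX, -0.73 for BAD and -0.73 for BCL2L11. The BCL2L11 difference was -0.56 after thinning and -0.40 in cells not on the deposited list, and passed in neither. The other 5 passed under every alternative run.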

How the results depend on the processing

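The 90 member values were recomputed under each alternative in which the gene passed the count filter, 1290 values in all. BCL2 did not pass it on the listed cells. Of these, 1173 kept their side of the threshold, 70 lost their call, 44 gained one and 3 changed sign with a call before or after. Among the others, 55 values without a call in the reported fit changed sign, which was not counted as a change of direction. In 50 of 90 pairs of member and comparison no alternative altered the call. The 3 sign changes came from cells not on the deposited list: BCL2L11 in 10 µM persister against control cells (0.065), BAD in 320 µM persister against control cells (-0.43) and BAD in 320 µM adapted against persister cells (0.062). The cause was not tested. On those cells 4 members were called in 10 µM persister against control cells and 5 in 320 µM adapted against persister cells. Leaving out single pools gave 4 to 7 members for 10 µM persister against control cells, with the low value without 10 µM persister pool 2. After thinning, 5 members were called in 10 µM adapted against persister cells and 3 between persister doses. Over all genes, thinning gave 4465 calls for 10 µM persister and 4500 for 320 µM persister against control, 4872 for 10 µM adapted against persister, 3366 between persister doses and 3723 for the interaction, from fewer UMIs. Cells not on the list, which are fewer, gave 4271 for 10 µM persister against control, 4700 for 10 µM adapted against persister, 3566 between persister doses and 3936 for the interaction. Library totals alone moved the median of all genes by 0.12 in 10 µM persister and -0.23 in 320 µM adapted against control, -0.19 and -0.28 for adapted against persister cells at 10 and 320 µM and -0.16 between adapted doses. The pool as replicate block changed 6 calls, of BBC3 (0.36, 0.29, -0.51 and -0.42), BCL2L1 (0.25) and MCL1 (-0.19), all given above, and no other call of a member. Depth limits BCL2 most, with 3 UMIs in 10 µM persister cells, the condition with the fewest UMIs.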
